A study of Mus musculus with 93 samples.

Results

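Glycogen is made and broken down in the liver by a small set of enzymes, and the transcripts of 5 of the genes involved were followed here in 93 mouse livers: Ppp1r3b, Ppp1r3c and Ppp1r3g, which encode glycogen targeting subunits of protein phosphatase 1, and Gys2 and Pygl, which encode liver glycogen synthase and liver glycogen phosphorylase. The genes were taken as a list, and every probeset whose platform annotation gave one of these symbols was used. This gave 6 probesets, 1 for each gene except Ppp1r3c, which had 2, out of 11463 deposited probesets that carried 6661 gene symbols. A probeset is a set of short probes on the array that together report 1 transcript.

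Glycogen synthase adds glucose to a growing glycogen chain and glycogen phosphorylase releases it as glucose 1-phosphate. Protein phosphatase 1 removes phosphate from both enzymes, which switches the synthase on and the phosphorylase off, and the targeting subunits hold the phosphatase on the glycogen particle. Ppp1r3b encodes the subunit known as GL, the classical form of liver, Ppp1r3c encodes the subunit known as PTG, and Ppp1r3g encodes a further subunit found in liver. PPARα is a nuclear receptor of hepatocytes that fatty acids and fibrate drugs activate, and it is known above all for turning on fat oxidation genes in the fasting liver.

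The study asked which hepatic genes respond to a single fatty acid given by mouth, and for which of them PPARα is needed. Male PPARα −/− mice (substrain 129S4/SvJae, 48 livers) and wild-type mice (WT, substrain 129S1/SvImJ, 45 livers) were fasted for 4 h, dosed once by gavage and sampled 6 h later, and each liver was measured on its own array. The doses were 400 µl of a synthetic triglyceride carrying 1 kind of fatty acid, or 4 mg of a PPARα agonist (400 µl of a suspension at 10 mg/ml), and control mice received the same volume of the agonists' vehicle, carboxymethyl cellulose at 0.5%. The null allele is present in every cell of the body, and since the genotypes also differ in substrain, a difference between the genotypes and a difference between the substrains cannot be told apart.

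In the first run there were 5 PPARα −/− and 4 WT mice given WY14643 (a synthetic PPARα agonist), 5 of each genotype given fenofibrate (a fibrate drug) or oleic acid (C18:1), 4 PPARα −/− and 5 WT mice given eicosapentaenoic acid (C20:5), 5 of each genotype given docosahexaenoic acid (C22:6), and 5 PPARα −/− and 3 WT controls. In the later run there were 5 of each genotype given capric acid (C10:0) or linolenic acid (C18:3), 5 PPARα −/− and 4 WT mice given linoleic acid (C18:2), and 4 controls of each genotype. Ages were labelled 12 to 20 weeks for the first run's control and WY14643 groups and 8 to 24 weeks elsewhere, so that the first run's fenofibrate and triglyceride groups had controls with a narrower age range. Every comparison used controls of the same run and genotype, which all treatments of that run and genotype share.

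Values are log2 of the normalised signal, so a change of 1 is a doubling, and levels of different probesets are not compared. Over the arrays, the mean signal of first-run arrays was 470.6 to 483.2 and that of later-run arrays 583 to 603.9, which is why no level is set against a control of the other run. A signal under the array's own 5th percentile, 3.93 to 4.62 on the log2 scale over the arrays, was taken as not above background. A change was called where limma's moderated test gave an adjusted p under 0.05 (Benjamini-Hochberg over 10349 tested probesets), and all 6 probesets were among those tested. Ppara itself was read by 3 probesets, all with a lower median in PPARα −/− livers (7.02, 8.94 and 10.03) than in WT livers (8.98, 10.45 and 11.11). The first separated the genotypes completely (7.93 at most in PPARα −/− livers, 8.10 at least in WT livers), and the other 2 overlapped. Hepatocyte markers were high in every liver: the summed signal of 7 markers was 52400 to 63200 in first-run livers and 76000 to 87700 in later-run livers.

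The promoter windows of Ppp1r3c and Ppp1r3g are shown because the transcripts of these 2 genes changed most after WY14643, and because they hold different short motifs. Each window runs from 250 bases before to 50 bases after the annotated start (RefSeq, build GRCm38.p6), 5′ to 3′ on the gene's strand, at chr19:36736555-36736854 (minus strand) for Ppp1r3c and at chr13:35967656-35967955 (plus strand) for Ppp1r3g. Capitals mark CACGTG (an E-box), TGACG (the core of a cAMP response element) and CCAAT, each searched on both strands, so that CCAAT on the minus strand reads as its reverse complement.
Ppp1r3c: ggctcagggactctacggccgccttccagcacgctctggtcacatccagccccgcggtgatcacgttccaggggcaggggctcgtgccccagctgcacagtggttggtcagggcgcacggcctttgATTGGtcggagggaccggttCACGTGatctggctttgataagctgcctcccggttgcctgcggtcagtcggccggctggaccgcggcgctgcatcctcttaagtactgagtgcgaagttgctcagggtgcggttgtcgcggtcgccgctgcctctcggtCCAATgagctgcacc
Ppp1r3g: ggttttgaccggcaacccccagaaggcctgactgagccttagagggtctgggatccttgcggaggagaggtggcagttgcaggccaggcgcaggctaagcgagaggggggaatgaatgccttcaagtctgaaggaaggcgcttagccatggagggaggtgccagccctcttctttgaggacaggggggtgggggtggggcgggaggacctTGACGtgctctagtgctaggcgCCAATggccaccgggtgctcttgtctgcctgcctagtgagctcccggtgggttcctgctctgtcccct
The Ppp1r3c window held 1 CACGTG starting 104 bases before the start, and a CCAAT on each strand, the first 124 bases before and the second 36 bases after the start. The Ppp1r3g window held 1 TGACG starting 40 bases before the start and 1 CCAAT starting 18 bases before it. Among 32851 promoter windows of this length, 7.15% held CACGTG, 20.8% TGACG and 37.4% CCAAT. The DR1 element that binds PPAR with its partner RXR, searched as a pair of AGGTCA in the same direction with any 1 base between them, occurred in 0.0396% of all windows and in none of the 3 windows available for these genes. The Pygl window held AGGTCA once (16.3% of all windows) and TGACG once, both on the minus strand. A match is a stretch of letters and not a site, and no match says only that the letters are not in the window.

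**Figure D1:**
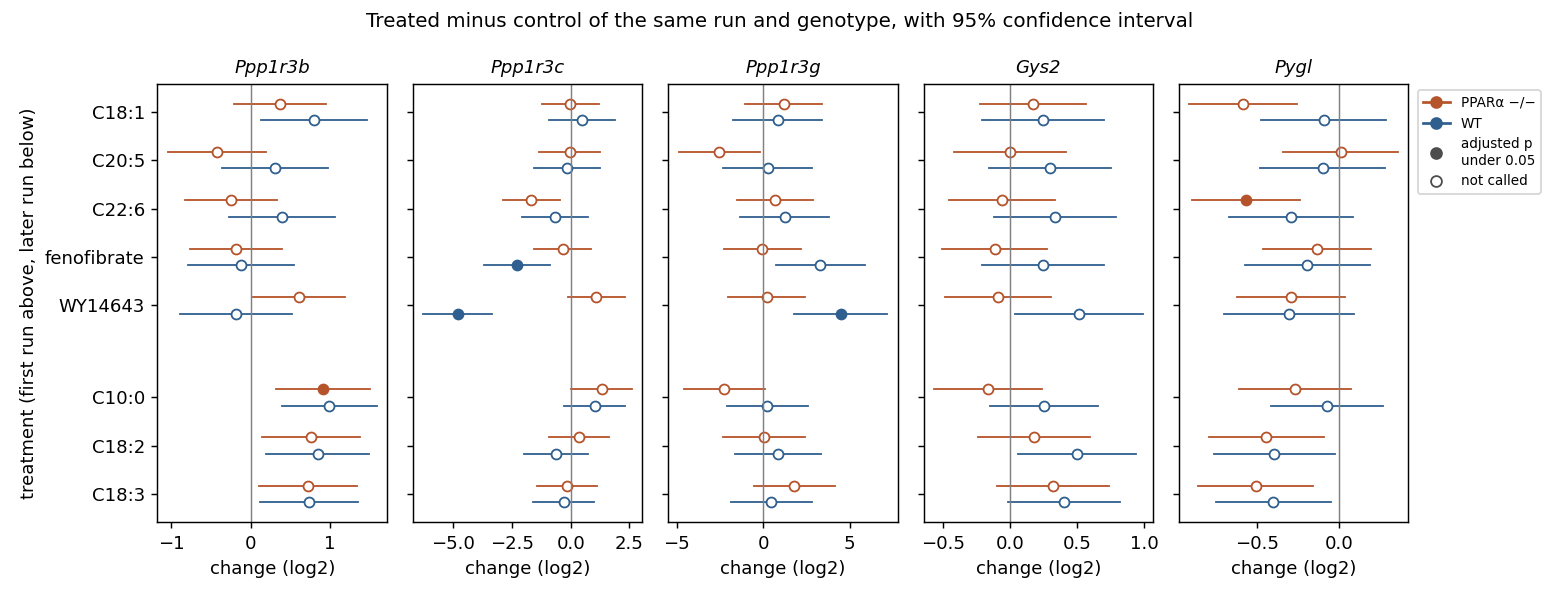
Change of each gene (1 panel a gene, horizontal axis in log2 with its own range, treated minus control of the same run and genotype) for the 8 treatments in rows, with PPARα −/− in orange above WT in blue; bars are 95% confidence intervals of limma's fit and filled points have an adjusted p under 0.05. Ppp1r3c after WY14643 in WT mice stands farthest from 0 at -4.82, and Gys2 and Pygl stay within 0.6 of 0 throughout.

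Ppp1r3c, the PTG subunit, fell after both agonists in WT mice. Its signal was 3.05, 3.50, 2.98 and 2.98 in WT mice given WY14643, against 7.18, 7.46 and 9.19 in WT controls. All 4 treated livers were under the background level and all 3 controls were far above it, with no overlap. The fitted change was -4.82 (SE 0.74, 95% confidence interval -6.29 to -3.34, adjusted p = 3.35e-07, limma), and because the treated livers were at background it is stated as at least 13.85-fold lower, the control mean against the background level of the treated arrays. In whole liver, fewer cells of a type and less RNA per cell cannot be told apart.

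The second Ppp1r3c probeset gave the same direction at a lower signal. It read 1.78, 2.56, 2.63 and 2.72 in WT mice given WY14643, against 4.59, 5.17 and 7.13 in WT controls, again without overlap (change -3.21, SE 0.73, adjusted p = 0.000427, limma), which is at least 2.787-fold lower. Over all 93 livers the signals of the 2 probesets correlated at r = 0.96 and rho = 0.97, as they report 1 transcript and share arrays. These coefficients hold the differences between groups as well as those within them.

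Fenofibrate lowered Ppp1r3c in WT mice less evenly. The signal was 4.96, 6.08, 7.91, 4.04 and 5.29 in WT mice given fenofibrate, against 7.18, 7.46 and 9.19 in WT controls. Of the treated livers, 4 lay below every control and 1 lay between the controls, so the groups overlapped. The change was -2.29 (SE 0.71, 4.883-fold lower, adjusted p = 0.0192, limma), and on the second probeset it was -1.90 (SE 0.70, adjusted p = 0.0571). On the first probeset 1 of the 5 treated livers was under background, and on the second 4 of the 5 were. Without the highest WT control, replicate 3, the change was -1.66 with an adjusted p of 0.206, and the call was also lost without fenofibrate replicate 4.

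No change of Ppp1r3c was called in PPARα −/− mice after either agonist in the fit without array weights. The signal was 9.17, 8.96, 9.41, 8.70 and 6.01 in PPARα −/− mice given WY14643, against 7.68, 7.07, 6.66, 6.81 and 8.54 in PPARα −/− controls. Of the treated livers, 4 were above every control and 1 was below every control (change 1.10, SE 0.61, adjusted p = 0.825, limma). A fit that weights each array by its quality gave 1.75 and an adjusted p of 0.0492, which passes the threshold. After fenofibrate the PPARα −/− livers read 8.03, 6.08, 7.36, 6.38 and 7.19, and the change was -0.34 (SE 0.61, adjusted p = 0.945).

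The genotypes differed in the response of Ppp1r3c to WY14643. The change in PPARα −/− mice exceeded that in WT mice by 5.92 (SE 0.96, 95% confidence interval 4.00 to 7.83, adjusted p = 3.27e-06, limma), and by 4.43 on the second probeset (SE 0.95, adjusted p = 0.000368). The WT side of this difference rests on livers at background. Ppp1r3c was the 1 gene of the 5 called in this comparison, where 16.5% of all probesets were called. For fenofibrate the difference was 1.95 (SE 0.93, adjusted p = 0.225), and none of the 5 genes was called among the 7.03% of probesets that were.

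The 2 agonists were compared directly at their common dose. In WT mice, Ppp1r3c was lower after WY14643 than after fenofibrate by 2.53 on the log2 scale (-2.53, SE 0.65, adjusted p = 0.0231, limma), which is at least 2.836-fold, and without overlap, as for 8.39% of all probesets. It was the 1 gene of the 5 called in this pair, where 1.88% of all probesets were called. The call was lost when any 1 of 6 livers was left out: each of the 4 WY14643 livers and fenofibrate replicates 2 and 3 (-1.96, adjusted p = 0.142 without replicate 3). The other 4 genes had differences between -0.11 and 1.20 in WT mice, and the widest of their intervals, for Ppp1r3g, ran from -1.16 to 3.55.

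**Figure D2:**
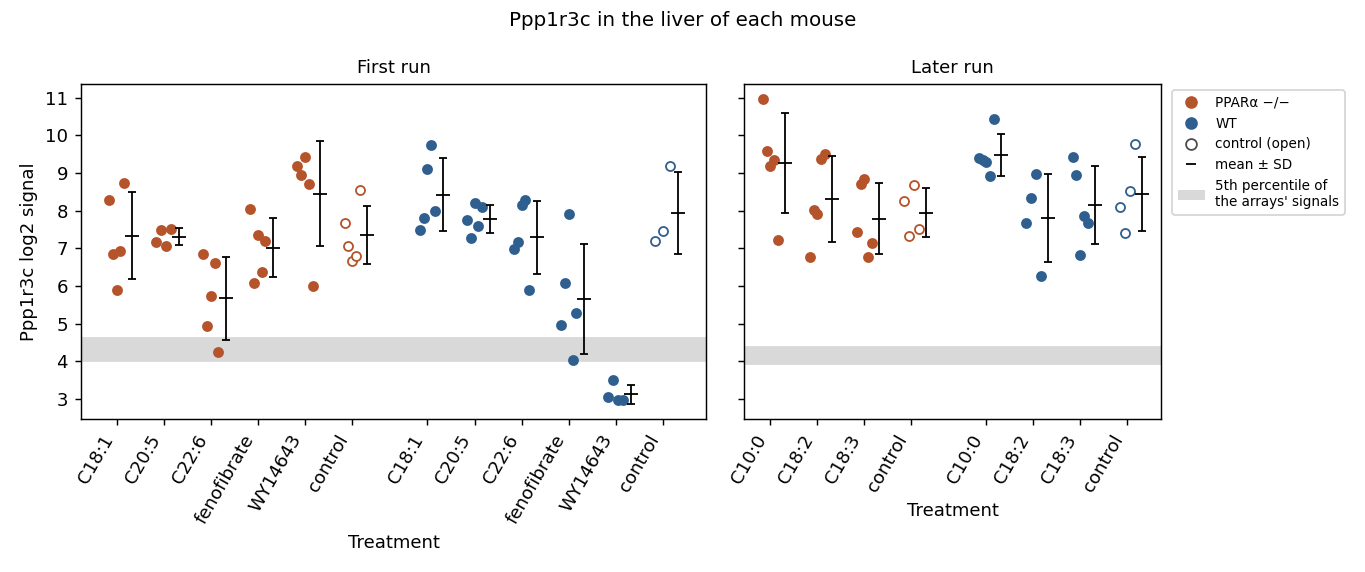
Ppp1r3c (its brighter probeset), log2 signal of each liver by treatment. In each run all PPARα −/− groups (orange) stand to the left and all WT groups (blue) to the right, with the controls last in each genotype. Lines and bars are mean ± SD and the grey band spans the arrays' 5th percentiles. The 4 WT livers given WY14643, at 2.98 to 3.50, lie under the band, while 4 of the 5 PPARα −/− livers given WY14643 lie at 8.70 to 9.41.

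Ppp1r3g rose after WY14643 in WT mice, the opposite direction to Ppp1r3c. The signal was 5.71, 6.32, 6.23 and 6.96 in WT mice given WY14643, against 1.16, 1.70 and 2.58 in WT controls. All treated livers were above background and all controls were under it. The change was 4.49 (SE 1.34, 95% confidence interval 1.81 to 7.17, adjusted p = 0.00795, limma), stated as at least 4.313-fold higher, and it was called whichever 1 liver was left out (4.16 to 4.87).

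Fenofibrate gave WT livers of 4.36, 4.75, 3.45, 6.38 and 6.57 for Ppp1r3g, against the same controls of 1.16, 1.70 and 2.58. The groups did not overlap, and 4 of the 5 treated livers were above background, against 0 of 3 controls. The change of 3.29 (SE 1.28) missed the threshold (adjusted p = 0.0785, limma). With the controls under background, it is stated as at least 1.878-fold higher.

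In PPARα −/− mice the Ppp1r3g signal was spread widely within groups. The controls alone read 1.42, 2.66, 8.53, 6.95 and 2.73. Mice given WY14643 read 4.31, 3.08, 5.34, 5.10 and 5.54, all within the range of those controls (change 0.22, SE 1.11, adjusted p = 0.997, limma). The difference between the genotypes in the response was -4.27 for WY14643 (SE 1.74, adjusted p = 0.0864) and -3.34 for fenofibrate (SE 1.70, adjusted p = 0.258).

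Across the 5 genes, 2 were called after WY14643 in WT mice, Ppp1r3g higher and Ppp1r3c lower, where 26.7% of all probesets were called (12.5% higher and 14.1% lower). The groups did not overlap for 3 of the 5, Gys2 included, against 33.6% of all probesets. After fenofibrate in WT mice 1 of the 5 was called against 13.5% of all probesets, and Ppp1r3g was the 1 gene without overlap, against 19%. Shares over 5 genes near those over all probesets are no result about the 5 as a set, and the result lies in the values of each gene. In PPARα −/− mice none of the 5 was called after WY14643, where limma called no probeset (0%) and 657 had an unadjusted p under 0.05, nor after fenofibrate, where 0.0773% were called.

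Ppp1r3g had the largest SD of the 5 genes in 16 of 20 groups, and Ppp1r3c in the other 4. It was above background in 27 of 48 PPARα −/− livers and in 14 of 45 WT livers. Of the WT livers above background, 8 were mice given WY14643 or fenofibrate, and every other WT group had at most 1 such liver. PPARα −/− livers above background were found in every group except C20:5.

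The control mice of the genotypes show the same spread. Ppp1r3g read 1.42, 2.66, 8.53, 6.95 and 2.73 in PPARα −/− controls of the first run, against 1.16, 1.70 and 2.58 in WT controls (difference 2.64, SE 1.28, adjusted p = 0.209, limma). The later run gave 2.42, 7.01, 3.04 and 8.69 in PPARα −/− controls, against 2.22, 2.29, 4.00 and 2.67 in WT controls (difference 2.50, SE 1.24, adjusted p = 0.253). In each run 2 PPARα −/− controls were far above the others, and the rest overlapped the WT range or lay just above it. None of the 5 genes was called between the controls of the genotypes, where 8.93% of probesets were called in the first run and 7.43% in the later run. For Ppp1r3b, Ppp1r3c, Gys2 and Pygl the differences lay between -0.59 and 0.37.

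**Figure D3:**
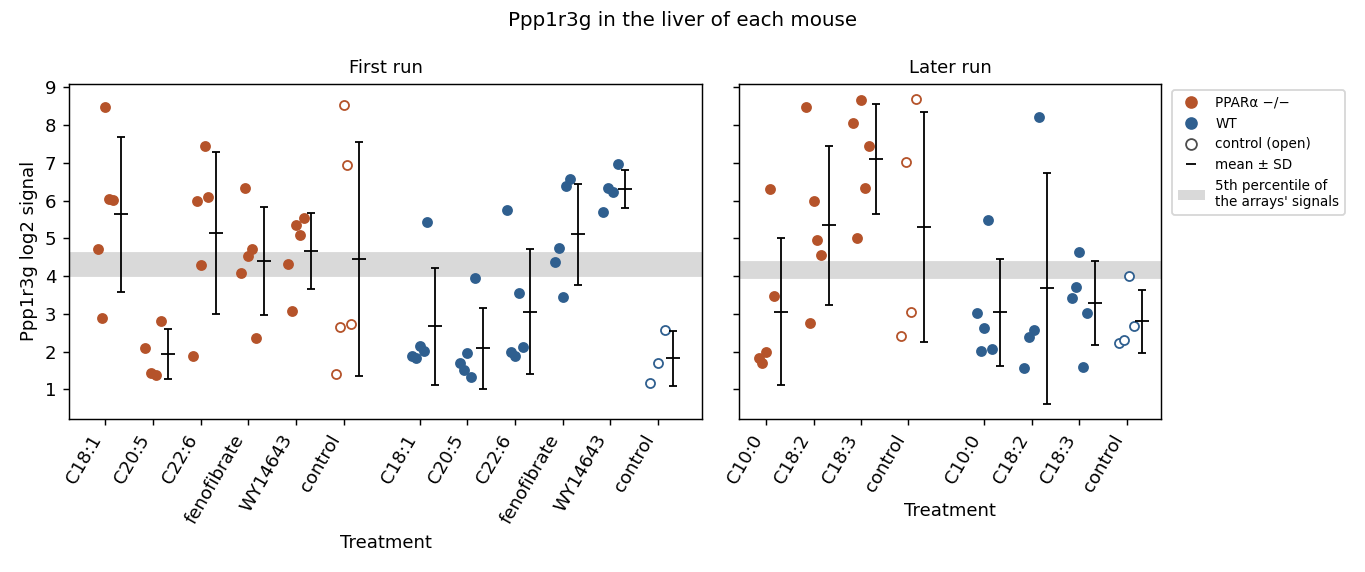
Ppp1r3g, log2 signal of each liver by treatment. In each run all PPARα −/− groups (orange) stand to the left and all WT groups (blue) to the right, with the controls last in each genotype. Lines and bars are mean ± SD and the grey band spans the arrays' 5th percentiles. In 27 of 48 PPARα −/− and 14 of 45 WT livers the signal was above its array's background level, among them all 4 WT livers given WY14643 (5.71 to 6.96).

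After the triglycerides of the first run, Ppp1r3g in WT mice was mostly at background. In the 5 WT mice given C18:1 it ranged over 1.84 to 5.42, in the 5 given C20:5 over 1.31 to 3.96, and in the 5 given C22:6 over 1.89 to 5.74. In PPARα −/− mice it read 4.72, 2.89, 8.49, 6.05 and 6.02 after C18:1, and 1.87, 5.99, 4.29, 7.45 and 6.09 after C22:6. After C20:5 it read 2.09, 1.44, 1.38 and 2.81, all under background. None of these changes from the PPARα −/− controls was called, the largest being -2.53 (SE 1.18, adjusted p = 0.9, limma) for C20:5. As all C20:5 livers were under background, that change is stated as at least 1.016-fold lower.

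The 3 triglycerides were set against each other within the PPARα −/− mice for this gene. C20:5 was below C18:1 in every liver, without overlap as for 5.52% of all probesets (difference -3.70, SE 1.18, 95% confidence interval -6.06 to -1.35, adjusted p = 0.19, limma). The gap lay between 2.81 (C20:5) and 2.89 (C18:1), both under background, so the lack of overlap carries little information. As all C20:5 livers were under background, the difference is stated as at least 2.297-fold. C22:6 exceeded C20:5 by 3.21 (SE 1.18, adjusted p = 0.114, limma), stated as at least 1.634-fold. C22:6 and C18:1 differed by -0.49 (95% confidence interval -2.71 to 1.73). In the later run, PPARα −/− mice given C18:3 read 8.05, 5.00, 8.66, 6.34 and 7.43, all above background, and those given C10:0 read 1.84, 1.69, 1.99, 6.29 and 3.46. The groups overlapped through 1 C10:0 liver, and the difference of 4.04 (SE 1.11, 95% confidence interval 1.83 to 6.25, adjusted p = 0.0505) just missed the threshold. The signal after C18:2, which has 1 double bond fewer than C18:3, was 8.46, 2.75, 6.00, 4.95 and 4.54 and overlapped both.

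The 1 call for Ppp1r3b, the GL subunit, was a rise after C10:0 in PPARα −/− mice. In PPARα −/− mice given C10:0 it read 10.25, 10.42, 9.90, 10.62 and 9.74, against 9.31, 8.80, 9.33 and 9.68 in PPARα −/− controls of that run. All 5 treated livers were above all 4 controls, by a narrow margin. The gene rose by 0.91 (SE 0.30, 95% confidence interval 0.31 to 1.50, 1.875-fold, adjusted p = 0.0477, limma), and it was the 1 gene of the 5 called in this comparison, where 6.92% of all probesets were called and 8.02% did not overlap. The call held in 3 of 9 fits that left out 1 liver (0.75 to 1.04). It was lost without C10:0 replicates 1, 2 or 4 or control replicates 1, 2 or 3, with an adjusted p of 0.162 without control replicate 2.

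In WT mice given C10:0, Ppp1r3b read 9.74, 10.14, 10.18, 9.91 and 10.00, against 8.39, 8.79, 9.43 and 9.41 in WT controls. The groups did not overlap, as for 4.92% of all probesets, and the change of 0.99 (SE 0.30, adjusted p = 0.0624, limma) missed the threshold. Here 1.59% of all probesets were called, none of them for these 5 genes.

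With C18:2, Ppp1r3b read 10.06, 10.06, 9.90, 9.83 and 10.33 in PPARα −/− mice, all above the highest PPARα −/− control at 9.68 (change 0.76, SE 0.31, adjusted p = 0.246, limma). In WT mice it read 9.51, 10.00, 10.37 and 9.52, all above the highest WT control at 9.43 (change 0.85, SE 0.32, adjusted p = 0.269). With C18:3 it read 10.12, 10.23, 10.15, 9.62 and 9.89 in PPARα −/− mice, 4 of them above every control (change 0.72, SE 0.31, adjusted p = 0.117), and 10.15, 9.89, 9.53, 9.58 and 9.53 in WT mice, all above every control (change 0.73, SE 0.31, adjusted p = 0.214). The groups share their controls within a genotype, and 3 of the 4 comparisons had no overlap. In them, the share of all probesets without overlap was 4.12% for C18:2 and 9.54% for C18:3 in PPARα −/− mice, and 6.83% for C18:2 and 5.41% for C18:3 in WT mice. None of the 5 genes was called after C18:2 or C18:3 in either genotype, where 0.358% and 10.4% of probesets were called in PPARα −/− mice and 0.464% and 3.41% in WT mice.

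The 3 later triglycerides, which differ in chain length and double bonds, gave Ppp1r3b differences between each other from -0.26 to -0.03. The largest were those of C18:3 minus C10:0, at -0.18 in PPARα −/− mice and -0.26 in WT mice. C18:2 minus C10:0 was -0.15 in PPARα −/− mice (95% confidence interval -0.71 to 0.41) and -0.15 in WT mice (-0.74 to 0.45), and C18:3 minus C18:2 was -0.03 in PPARα −/− mice (-0.61 to 0.54) and -0.11 in WT mice (-0.73 to 0.50). The response in PPARα −/− mice minus that in WT mice was -0.08 for C10:0 (SE 0.42), -0.09 for C18:2 (SE 0.45) and -0.01 for C18:3 (SE 0.44). The intervals reach nearly the size of the changes from control, so smaller differences between the compounds are not excluded by them.

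**Figure D4:**
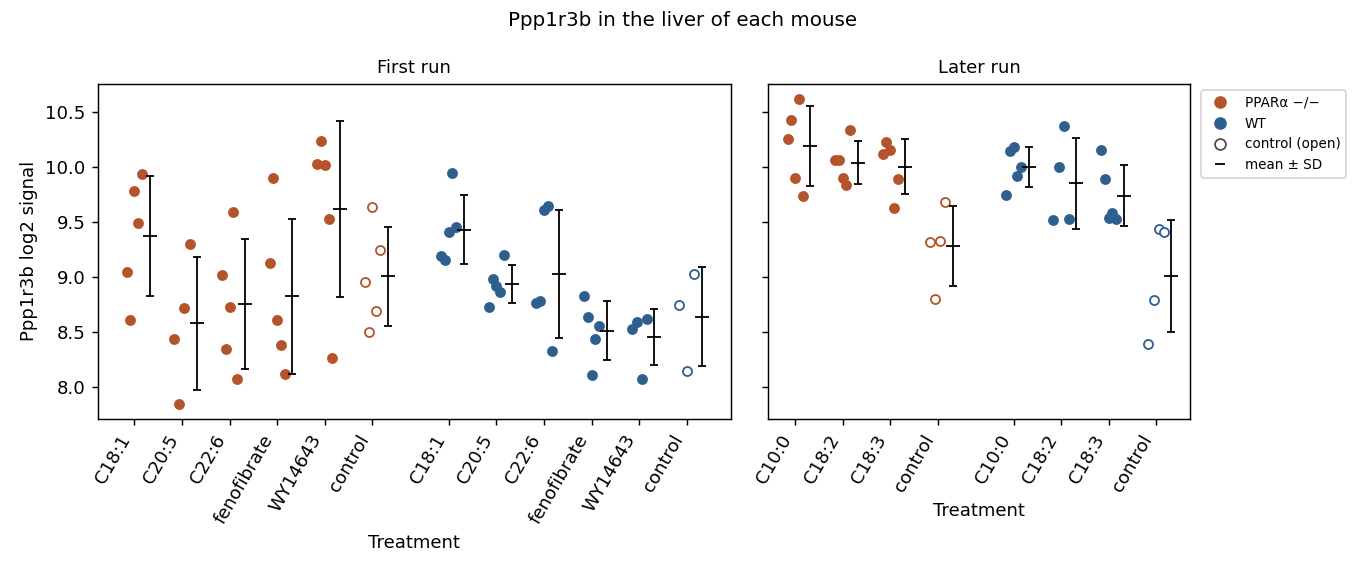
Ppp1r3b, log2 signal of each liver by treatment. In each run all PPARα −/− groups (orange) stand to the left and all WT groups (blue) to the right, with the controls last in each genotype. Lines and bars are mean ± SD. In the later run the livers given C10:0, C18:2 or C18:3 span 9.62 to 10.62 in PPARα −/− mice and 9.51 to 10.37 in WT mice, against controls at 8.80 to 9.68 (PPARα −/−) and 8.39 to 9.43 (WT).

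In the first run the Ppp1r3b values of PPARα −/− mice differed more from liver to liver. Their group SDs were 0.45 to 0.80, against 0.19 to 0.36 in the later run. In WT mice the group SDs were alike, 0.17 to 0.58 in the first run and 0.18 to 0.51 in the later run. WT mice given C18:1 read 9.19, 9.15, 9.41, 9.94 and 9.45, against 8.74, 8.14 and 9.02 in WT controls. The groups did not overlap, as for 4.59% of all probesets, but the change of 0.79 (SE 0.34, adjusted p = 0.517, limma) was not called. In that comparison limma called no probeset (0%), and 806 had an unadjusted p under 0.05. In PPARα −/− mice given WY14643 it read 10.03, 10.23, 10.01, 9.52 and 8.26, against 8.95, 8.50, 9.63, 8.69 and 9.24 in PPARα −/− controls. The same mouse, replicate 5, was lowest for Ppp1r3b and for Ppp1r3c, and the Ppp1r3b change of 0.61 (SE 0.29) was not called (adjusted p = 0.773). With array weights it was 1.08 (adjusted p = 0.00386). In WT mice the Ppp1r3b change was -0.18 after WY14643 (SE 0.35) and -0.12 after fenofibrate (SE 0.34).

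Pygl, the phosphorylase, fell after C22:6 in PPARα −/− mice. The signal was 11.70, 10.55, 11.23, 11.13 and 11.49 in PPARα −/− mice given C22:6, against 11.81, 11.78, 11.39, 11.86 and 12.09 in PPARα −/− controls. Of the treated livers, 3 lay below every control and 2 lay above the lowest one, so the groups overlapped. The change was -0.56 (SE 0.17, 95% confidence interval -0.89 to -0.23, 1.478-fold lower, adjusted p = 0.0155, limma). Pygl was the 1 gene of the 5 called there, where 14.3% of all probesets were called (8.26% lower). Without C22:6 replicate 2 the change was -0.40 (adjusted p = 0.153), and the call was also lost without control replicate 5.

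Kupffer cell markers moved in the same comparison. Of 7 measured, 4 rose after C22:6 in PPARα −/− mice (Cd68, Clec4f, Csf1r and Vsig4, by 0.83 to 1.53), with a median change of 0.88 over the 7, against -0.01 over all probesets. Their summed signal ranged over 1690 to 2910 in PPARα −/− mice given C22:6 and over 324 to 2270 in PPARα −/− controls, and Marco was under background in all of those controls. Of 4 sinusoidal endothelium markers, Lyve1, a dim probeset, rose by 2.00 and Clec4g fell by 0.47 (median change 0.02 over the 4). Fabp4, a fat cell and macrophage gene, rose by 1.26 and Alas2, a red cell marker, fell by 0.64, while the summed signal of the 7 hepatocyte markers ranged over 53800 to 62700 against 57900 to 59800. Their part in the Pygl result was not tested.

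C18:1 gave a Pygl change of the same size in PPARα −/− mice. The signal was 11.46, 11.37, 11.04, 11.12 and 11.03, against controls of 11.81, 11.78, 11.39, 11.86 and 12.09 (change -0.58, SE 0.17, adjusted p = 0.0549, limma), where 1.13% of all probesets were called and none of the 5 genes was. C20:5 gave 11.82, 11.66, 11.89 and 11.82, all within the controls' range (change 0.01, SE 0.18, adjusted p = 0.999, with 0.058% of probesets called). Set directly against C18:1, C20:5 was higher without overlap, as for 5.52% of all probesets. The difference was 0.60 (SE 0.18, 95% confidence interval 0.24 to 0.95, adjusted p = 0.151, limma), and C22:6 minus C20:5 was -0.58 (SE 0.18, adjusted p = 0.0552). C22:6 and C18:1 differed by 0.02 (95% confidence interval -0.31 to 0.35).

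In the later run Pygl read 11.19, 10.90, 11.25, 11.32 and 11.09 in PPARα −/− mice given C18:3, against 11.67, 11.82, 12.10 and 11.04 in their controls. The 5 treated livers lay below 3 of the 4 controls, and 1 control lay among them (change -0.51, SE 0.18, adjusted p = 0.05, limma, not under the threshold). The changes in WT mice lay between -0.40 and -0.07 over the 8 treatments, none of them called. The difference between the genotypes was largest for C18:1 (-0.49, SE 0.25, adjusted p = 0.643).

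Gys2, the synthase, was the 1 gene of the 5 with no call in any comparison of the main fits. Counts under other settings are given at the end. Over all 93 livers it ranged from 9.12 to 10.99, a 3.6-fold span, and Pygl from 10.55 to 12.15, a 3-fold span. The span was 6.8-fold for Ppp1r3b. Ppp1r3c ranged from 2.98 to 10.96 and Ppp1r3g from 1.16 to 8.69 on the log2 scale, both with their lowest values under background, so no fold is given. Gys2 read 10.13, 10.13, 10.03 and 10.24 in WT mice given WY14643, against 9.76, 9.16 and 9.94 in WT controls. The groups did not overlap, and the change was 0.51 (SE 0.24, adjusted p = 0.105, limma). In PPARα −/− mice given WY14643 it read 9.27, 9.36, 9.71, 10.05 and 10.78, against 9.76, 9.63, 10.19, 10.05 and 9.98 in PPARα −/− controls (change -0.09, SE 0.20).

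C22:6, the longest and most unsaturated of the triglycerides, gave no call among the 5 genes in WT mice, where 5.77% of all probesets were called, and likewise C20:5, where 0.56% were. In PPARα −/− mice Ppp1r3c read 6.86, 4.94, 5.73, 6.61 and 4.25 after C22:6, against 7.68, 7.07, 6.66, 6.81 and 8.54 in controls. Of the treated livers, 4 were below every control. The change of -1.67 (SE 0.61, adjusted p = 0.0535, limma) just missed the threshold, and it was -1.46 on the second probeset (SE 0.61, adjusted p = 0.092). Under background were 1 of the 5 treated livers on the first probeset and 4 of the 5 on the second. The difference from the WT change of -0.65 was -1.02 (SE 0.93, adjusted p = 0.609), and none of the 5 genes was called in that comparison of the genotypes, where 2.94% of probesets were. The same held for the genotype differences in the responses to C18:1 (0% of probesets called), C20:5 (0.029%), C10:0 (0.0193%), C18:2 (0%) and C18:3 (1.05%). For C18:1 and C18:2 limma called none of the probesets, and 813 and 540 had an unadjusted p under 0.05.

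C10:0 gave the highest Ppp1r3c levels among the later groups. The signal was 10.96, 9.59, 9.19, 9.35 and 7.23 in PPARα −/− mice given C10:0, against 8.27, 7.33, 8.69 and 7.51 in PPARα −/− controls (change 1.32, SE 0.65, adjusted p = 0.213, limma). In WT mice it read 9.39, 9.34, 9.30, 8.91 and 10.42, against 8.09, 7.41, 8.51 and 9.75 in WT controls (change 1.03, SE 0.65, adjusted p = 0.496). Both pairs overlapped. C18:3 minus C10:0 was -1.48 in PPARα −/− mice (95% confidence interval -2.70 to -0.25, adjusted p = 0.214) and -1.33 in WT mice (-2.56 to -0.11, adjusted p = 1). In all, 7 pairs of compounds were compared in each genotype, 14 comparisons a gene, and the Ppp1r3c difference between the agonists in WT mice was the 1 called for these genes. In the other 13 comparisons between 0% and 4.29% of all probesets were called. In PPARα −/− mice the shares were 0.0387% for WY14643 minus fenofibrate, 0.309% for C22:6 minus C18:1, 0.174% for C20:5 minus C18:1, 2.42% for C22:6 minus C20:5, 0% for C18:3 minus C18:2, 0.0193% for C18:2 minus C10:0 and 0.879% for C18:3 minus C10:0. In WT mice they were 4.29%, 1.35%, 0.0387%, 0%, 0.00966% and 0.0193% for the 6 pairs of triglycerides in that order. For C18:3 minus C18:2, limma called none, and 378 probesets in PPARα −/− mice and 305 in WT mice had an unadjusted p under 0.05.

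By group means within each run and genotype, Ppp1r3c was highest after WY14643 in PPARα −/− mice of the first run (8.45 ± 1.39, SD, n = 5) and lowest after C22:6 (5.68 ± 1.10, n = 5), a step below the next group, fenofibrate (7.01 ± 0.78, n = 5), that exceeded the larger SD. In WT mice of that run the order ran from C18:1 at 8.43 to fenofibrate at 5.66 and WY14643 at 3.13. For Ppp1r3b the step between the control mean and the lowest triglyceride mean exceeded the larger SD in both genotypes of the later run, and for Ppp1r3g the steps that did so were those below fenofibrate in both genotypes of the first run. For Gys2 no neighbouring pair of means was farther apart than the larger SD. Over the 5 genes, 9 of 80 neighbouring pairs were.

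Beyond the group means, the genes varied together from liver to liver. The deviations of each liver from its group mean were correlated for the 10 gene pairs over the 93 livers, with permutations of livers within groups and Benjamini-Hochberg adjustment over the 10 pairs. Ppp1r3g and Gys2 correlated positively (r = 0.50, rho = 0.52, permutation p = 1e-05 for both, the smallest that 100000 permutations can give, adjusted p = 0.0001). Within the first and later run r was 0.44 and 0.32 in PPARα −/− mice and 0.74 and 0.74 in WT mice. Without the 2 livers farthest from the median r was 0.47. Here and below, those livers were picked on the first-named gene of the pair alone, so livers extreme only in the other gene stayed in.

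Ppp1r3g and Pygl correlated negatively (r = -0.49, rho = -0.42, permutation p = 7e-05 and 0.00025, adjusted p = 0.00023 and 0.00083). The coefficient was negative in all 4 sets of livers by run and genotype, from -0.59 to -0.41, and -0.43 without the 2 farthest livers. Livers with more Ppp1r3g than their group mean tended to have more synthase and less phosphorylase transcript. However, Ppp1r3g was under background in 52 of the 93 livers (31 of 45 WT and 21 of 48 PPARα −/− livers). Differences there carry little information, which limits every coefficient with this gene. Gys2 and Pygl themselves correlated at r = -0.35 and rho = -0.37 (permutation p = 0.0019 and 0.00097, adjusted p = 0.0038 and 0.0024), with -0.54 to -0.25 in the 4 sets.

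Ppp1r3b and Ppp1r3c correlated positively (r = 0.46, rho = 0.47, permutation p = 7e-05 and 4e-05, adjusted p = 0.00023 and 0.0002). The values within the 4 sets lay between 0.42 and 0.71, and r stayed at 0.46 without the 2 farthest livers. Ppp1r3c and Ppp1r3g correlated negatively (r = -0.37, rho = -0.35, permutation p = 0.0011 and 0.0026, adjusted p = 0.0029 and 0.0052), between -0.47 and -0.18 in the 4 sets. Ppp1r3c and Gys2 had r = -0.30 and rho = -0.25 (permutation p = 0.02 and 0.038, adjusted p = 0.033 and 0.064), and r = -0.19 without the 2 farthest livers, so this relation rests in part on those livers. Its r lay between -0.41 and -0.04 in the 4 sets, nearest 0 in first-run WT livers, and was 0.17 in the 16 control livers. The other 4 pairs had adjusted p-values of at least 0.18.

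As many transcripts of 1 liver vary together, each coefficient was set beside those of all other probesets with the same gene. For Ppp1r3g, 0.715% of 10348 probesets had a coefficient at least as high as Gys2 and 1.08% one at least as low as Pygl. For Ppp1r3c, 0.203% had one at least as high as Ppp1r3b. Taken from the other gene of these pairs, the shares were 0.377% (Gys2), 1.4% (Pygl) and 0.85% (Ppp1r3b). The 3 remaining pairs with negative coefficients above were mostly less unusual. Ppp1r3c with Ppp1r3g gave 0.541% taken from Ppp1r3c and 5.23% taken from Ppp1r3g. Gys2 with Pygl gave 3.33% from Gys2 and 5.9% from Pygl, and Ppp1r3c with Gys2 gave 1.96% from Ppp1r3c and 7.22% from Gys2. Genes are not independent of each other, so these shares describe the arrays.

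**Figure D5:**
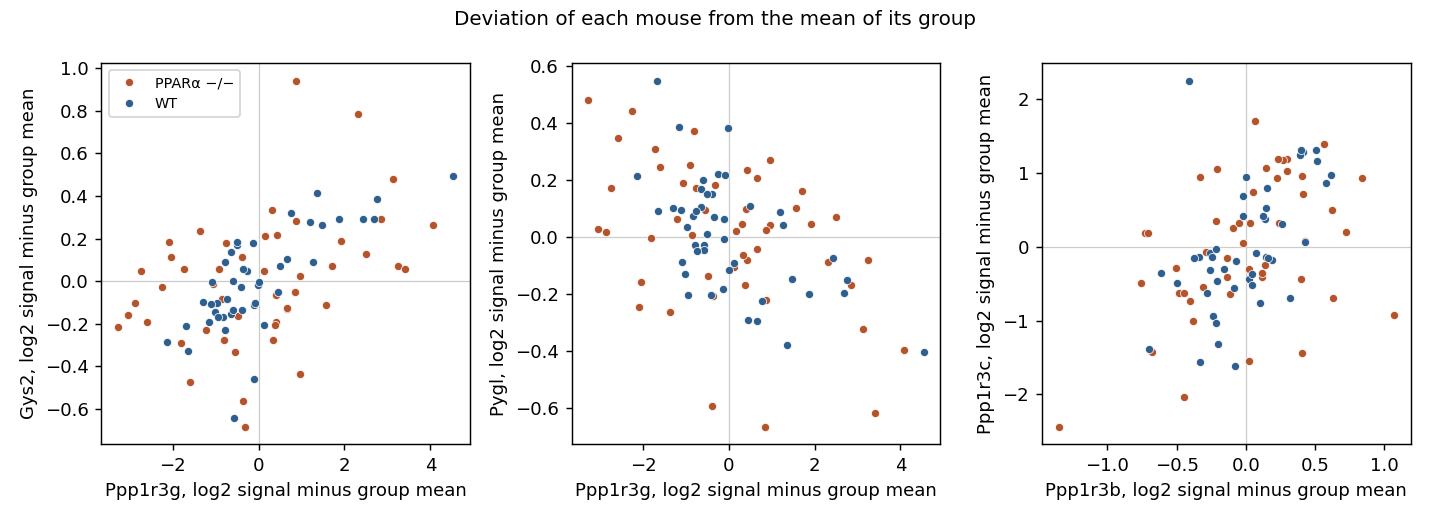
Deviation of each liver from its group mean (log2, 93 livers) for Gys2 against Ppp1r3g, Pygl against Ppp1r3g and Ppp1r3c against Ppp1r3b, with PPARα −/− in orange and WT in blue. The clouds slope up for Ppp1r3g with Gys2 (r = 0.50) and for Ppp1r3b with Ppp1r3c (r = 0.46), and down for Ppp1r3g with Pygl (r = -0.49).

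For each gene the 3 transcripts whose pattern was most alike were taken by Pearson's r over the 93 livers after removal of each run's mean, as a description that holds treatment, genotype and array effects together. For Ppp1r3b they were Cry1, a repressor of the circadian clock (r = 0.71), Ankrd33b (0.71) and Tsc22d3, a glucocorticoid-induced gene (0.70). For Ppp1r3c they were Spata2l (0.77), the potassium channel gene Kcnn2 (0.70) and the kinase gene Map2k6 (0.69). For Ppp1r3g they were Jun, a subunit of the AP-1 transcription factor (0.69), the amino acid transporter gene Slc38a2 (0.68) and Igfbp1, a liver gene that insulin represses (0.66).

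For Gys2 the most alike were Coq10b (0.61), the noncoding RNA gene Oip5os1 (0.60) and the steroid enzyme gene Hsd17b6 (0.57). For Pygl they were Pklr, which encodes liver pyruvate kinase (0.88), Cyb5b (0.86) and Acaca, which encodes acetyl-CoA carboxylase of fatty acid synthesis (0.84). Those of Pygl were the closest of all and held in each run, with r between 0.82 and 0.89. The neighbours of Ppp1r3c were looser in the later run, where r for Map2k6 was 0.50 against 0.74 in the first run.

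Other genes of glycogen metabolism were counted from lists. For WY14643 in WT mice the counts stand beside 26.7% of all probesets called, 14.1% lower, and lie near that background. After WY14643 in WT mice, of 7 glycogen enzyme genes 1 fell and none rose (median change 0.02, against -0.05 over all probesets): Ugp2, which makes UDP-glucose, fell by 0.60 (SE 0.18, adjusted p = 0.00668, limma). Of 8 kinase genes acting on synthase and phosphorylase 2 fell, Phka2 by 0.65 and Phkg2 by 0.76, both subunits of phosphorylase kinase. Of 5 genes of glucose phosphate supply and release 1 fell, Slc37a4, the glucose 6-phosphate transporter of the endoplasmic reticulum. Its change was -1.21 (SE 0.15, adjusted p = 2.02e-09). Of 6 phosphatase subunit and targeting genes 1 rose, Ppp1r3g, and 1 fell, Ppp1r3c (median change -0.11).

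Among 7 hormone signalling genes Irs1, an insulin receptor substrate, rose by 1.17 (SE 0.32, adjusted p = 0.00337, limma), and Akt1, named after its value was seen, fell by 0.44. In WT mice fenofibrate also changed Slc37a4 (-1.04, adjusted p = 1.11e-07) and Irs1 (0.95, adjusted p = 0.0258). The same 2 genes in PPARα −/− mice had changes of -0.05 and -0.46 after WY14643, not called, and the genotypes differed for Slc37a4 by 1.16 (adjusted p = 8.73e-06) and for Irs1 by -1.64 (adjusted p = 0.00284). Fabp4, the 1 measured of 4 fat cell markers, rose by 1.86 in WT mice after WY14643. Its signal ranged over 160 to 284 in those mice and over 39.7 to 69.8 in WT controls. In the paper, Fabp4 is among the genes that WY14643 raised out of proportion. Of 7 hepatocyte markers 1 was called in WT mice after WY14643, Cps1 (change -0.52, adjusted p = 1.33e-06, limma). The median change over the 7 was -0.03. After fenofibrate in WT mice Cps1 changed by -0.40 (adjusted p = 0.000177, limma). For WY14643 the genotypes differed by 0.49 for Cps1 (adjusted p = 0.000642, limma). The part of Fabp4 and Cps1 in these results was not tested.

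After C22:6 in PPARα −/− mice, where 14.3% of all probesets were called and 8.26% were lower, calls were found in 4 of the 5 lists, and none among 6 phosphatase subunit genes. Of the 7 glycogen enzyme genes 3 fell: Pygl, Gbe1, the branching enzyme (by 0.54), and Pgm1, phosphoglucomutase (by 0.57, adjusted p = 0.000416, limma). Of the 5 glucose phosphate genes 4 fell, among them Slc2a2, the hepatic glucose transporter (by 1.19, adjusted p = 0.00125), and G6pc, glucose 6-phosphatase (by 1.07, adjusted p = 0.0148). Of the 8 kinase genes 2 fell, and of the 7 hormone genes 2 fell, among them Gcgr, the glucagon receptor (by 0.33). The medians of these lists lay between -0.40 and -0.17, against -0.01 over all probesets, and the Kupffer cell values given above stand beside them.

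C20:5 in PPARα −/− mice lowered G6pc by 1.79 (SE 0.33, adjusted p = 0.00492, limma), the 1 gene of these lists called there, where 0.058% of all probesets were called. C10:0 in PPARα −/− mice lowered Gyg, glycogenin, the primer of glycogen (by 1.02, adjusted p = 0.00333, limma), Pgm1 (by 0.33), Irs1 (by 1.06) and Phka2 (by 0.71). Gyg and Pgm1 were of 7 glycogen enzyme genes, Irs1 of 7 hormone genes and Phka2 of 8 kinase genes. In that comparison 6.92% of all probesets were called. C18:3 in PPARα −/− mice lowered Slc2a2 (by 1.16), of 5 glucose phosphate genes, and Gcgr (by 0.43) and Irs1 (by 1.13), of 7 hormone genes. Gaa, the lysosomal glycogen hydrolase, named after its value was seen, rose by 0.43 (adjusted p = 0.0498, limma). That was its dimmer probeset, and the brighter one was left out by the interquartile range filter. In this comparison 10.4% of all probesets were called. Counts over lists of this size are no result about the lists. In PPARα −/− mice given C10:0 none of the 7 Kupffer cell markers was called, while 1 of 4 sinusoidal endothelium markers fell, Clec4g by 0.59 (range over the 4 from -0.59 to 1.48, median -0.18), and 1 of 5 stellate cell markers fell, Col3a1 by 2.68 (median -0.66). After C18:3 in PPARα −/− mice 1 of 7 hepatocyte markers rose, Hnf4a by 0.72 (median 0.04). There 1 of 4 sinusoidal endothelium markers also rose, Stab2 by 0.43 (median 0.25). The part of these markers in the Ppp1r3b and list results was not tested.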

How the data were processed

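Livers of 93 individual mice were each measured on 1 Affymetrix array. The deposited values are normalised signal intensities on a linear scale that, per the labels, the authors made with GCRMA 2.20, and the deposited table held 11463 probesets. GCRMA subtracts a background estimated from base content, which leaves dim probesets at very low values, so that differences near background are uncertain and folds there are given as bounds against each array's 5th percentile. An array gives no read depth, and the number of mice limits the precision. Gene names came from the platform annotation (10279 probesets with 1 symbol, 406 with several, 727 with none).

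Log2 was taken of every value. After removal of 51 control probesets, those with an interquartile range of at least 0.25 over 83 arrays were tested (10349 probesets) with limma 3.58.1 in R 4.3.3, as in the study's methods (linear models with moderated statistics), with 1 mean per group and Benjamini-Hochberg adjustment. C10:0 was tested in a fit of all 93 arrays. The study's own threshold was an unadjusted p under 0.01, tried as an alternative. Other alternatives were another filter, median centring, quantile normalisation within run, an intensity trend, array weights, a fit of the compared groups alone, the replicate number as a block and each array left out in turn. The labels do not say that equal replicate numbers pair mice. The deviations of same-numbered mice correlated above 0.1 for every number only for WY14643 in PPARα −/− mice (0.11 to 0.3), and there the block changed no call (adjusted p = 0.703 for Ppp1r3b and 0.757 for Ppp1r3c). The scripts were tested on simulated data.

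The genes named were the 5 members with every probeset, listed pathway genes called in at least 2 comparisons of a treatment with control or among the 4 largest other changes, and for each member the 3 most alike transcripts. Members and lists were chosen with earlier results of these data known. Bile duct and muscle markers had no probeset here. The figures and tables used Python 3.11.15 with pandas 2.3.3, numpy 2.4.6, scipy 1.17.1 and matplotlib 3.10.9.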

Additional observations from a re-analysis of the deposited data

Results flagged for a closer look

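The response of Ppp1r3c to WY14643 differed between the genotypes, by 5.92 on the log2 scale (PPARα −/− minus WT, limma's test of the difference) and by 4.43 on the second probeset.

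Over 19 groups of 4 or 5 mice and 6 probesets, 114 sets of values in all, 1 liver stood far from the others by Dixon's criterion in 10 sets, which chance alone gives in about 5% of sets. The sets share mice, and 2 of the probesets report 1 transcript. For Ppp1r3c these were PPARα −/− WY14643 replicate 5 at 6.01 (nearest 8.70), WT WY14643 replicate 2 at 3.50 (nearest 3.05), and on the second probeset WT WY14643 replicate 1 at 1.78 (nearest 2.56) and later WT control replicate 4 at 7.74 (nearest 5.86). The WY14643 livers of WT mice were under background, where differences carry little information. For Ppp1r3g they were replicate 5 of WT C18:1 at 5.42 (nearest 2.16), replicate 5 of WT C20:5 at 3.96 (nearest 1.97) and replicate 4 of WT C18:2 at 8.22 (nearest 2.56). For Ppp1r3b it was WT WY14643 replicate 3 at 8.07 (nearest 8.52). For Gys2 they were PPARα −/− fenofibrate replicate 1 at 9.12 (nearest 9.86) and later WT control replicate 1 at 9.35 (nearest 10.18).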

How the results depend on the processing

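Counts below are genes called of the 5, and the cause of each shift was not tested. The count for C10:0 in WT mice became 1, against 0, with an interquartile range of at least 0.5, with array weights and at an unadjusted p under 0.01. Array weights also gave 2 after WY14643 in PPARα −/− mice, against 0 (Ppp1r3b 1.08, adjusted p = 0.00386, and Ppp1r3c 1.75, adjusted p = 0.0492, limma). They gave 4 for the genotype difference in the WY14643 response, 0 after C22:6 in PPARα −/− mice, and 1 each after C18:1 and C18:3, for C20:5 minus C18:1, for C18:3 minus C10:0 and for WY14643 minus fenofibrate in PPARα −/− mice. Fits of the compared groups alone gave 0 for C22:6 and C10:0 in PPARα −/− mice and 0 for WY14643 minus fenofibrate in WT mice. In such a fit Ppp1r3c after fenofibrate in WT mice had an adjusted p of 0.129, while Ppp1r3g passed at 0.0244.

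With the replicate block the count was 0 for C10:0 (Ppp1r3b 0.93, adjusted p = 0.0623), 1 for C18:3 and 1 for C18:3 minus C10:0, all in PPARα −/− mice, and no other of the counts changed. Median centring, quantile normalisation within run, the intensity trend and all 93 arrays in 1 fit each gave 1 for C18:1 and 1 for C18:3 in PPARα −/− mice. The trend, no interquartile filter and a filter on low signal gave 1 for C18:3 minus C10:0, and all 93 arrays gave 1 for C22:6 minus C20:5. At an unadjusted p under 0.01, in PPARα −/− mice, the counts were 1 for C18:1, 2 for C22:6, 1 for C18:3, 1 for C22:6 minus C18:1, 2 for C20:5 minus C18:1, 2 for C22:6 minus C20:5, 1 for C18:3 minus C10:0 and 1 for WY14643 minus fenofibrate.

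Leaving out 1 liver, the counts ranged over 0 to 1 for fenofibrate in WT mice, 0 to 1 for C18:1, 0 to 2 for C22:6, 0 to 1 for C10:0 and 0 to 1 for C18:3 in PPARα −/− mice, 1 to 2 for the genotype difference in the WY14643 response, 0 to 1 for WY14643 minus fenofibrate in WT mice, and 0 to 2 for C22:6 minus C20:5 and 0 to 1 for C18:3 minus C10:0 in PPARα −/− mice. Ppp1r3c after WY14643 in WT mice was called in all 7 of these fits (-5.20 to -4.19) and its genotype difference in all 17 (5.29 to 6.53). No called change reversed. With background set at each array's 1st percentile, chosen after seeing the data, Ppp1r3g after WY14643 in WT mice was at least 14.01-fold higher, and the second Ppp1r3c probeset at least 8.209-fold lower. The WY14643 livers of the first Ppp1r3c probeset lay above that level, so its folds there are the measured ones, 28.16-fold lower than in controls and 5.766-fold lower than after fenofibrate. Signals under background limit all values of Ppp1r3g in most WT groups.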
